A study of Mus musculus with 5 samples.

Results

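The genes described here are 7 B cell genes (Cd79a, Cd79b, Ms4a1, Pax5, Ebf1, Blk and Cd22), the chemokine gene Cxcl13 and its receptor gene Cxcr5. They were chosen by symbol, and all 9 were found among the 22815 rows of the deposited table. RNA was sequenced by Smart-seq2, a low-input protocol, from cells washed out of the peritoneal cavity of 8-week-old mice. The design holds 1 library from wildtype C57BL/6 mice given PBS (WT PBS), 2 from wildtype mice given pristane (WT pristane) and 2 from Irf8-deficient mice given pristane (Irf8KO pristane). Pristane is a hydrocarbon oil that causes chronic inflammation of the peritoneum. The labels do not say which Irf8 allele was used, how long after the injection cells were taken, or whether animals were pooled, and no Irf8-deficient library with PBS is among the 5. They also do not say whether the 2 libraries of a pair came from separate animals, so p-values measure the spread between these libraries, which may be technical.

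B cells are a main lymphocyte population of the unperturbed peritoneal cavity, where B-1 cells live beside large resident macrophages. Cd79a and Cd79b encode the Igα and Igβ chains that carry the signal of the B cell antigen receptor, and the transcription factors Ebf1 and Pax5 establish and hold B cell identity. Cxcl13 is the chemokine that draws B cells bearing its receptor Cxcr5 into follicles, milky spots and body cavities. It is made by stromal cells and, in the peritoneum, by macrophages, not mainly by B cells themselves.

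Values are FPKM, fragment numbers scaled to transcript length and to sequencing depth, so levels of different genes can be compared per length. Depth, read from the smallest steps of the low values, came to between 2287000 fragments in WT PBS and 5040000 in Irf8KO pristane 1, and between 9089 and 9834 genes per library reached 1 FPKM. Irf8 itself, the gene meant to be lost, stood at 32.4 FPKM in WT PBS, at 63.3 and 48.7 in WT pristane, and at 121 and 59.4 in the libraries labelled Irf8KO pristane. The labelled knockout libraries were therefore not lower in Irf8 message than the wildtype ones (log2 difference from WT pristane 0.60 ± 0.41 SE, adjusted p = 0.471 by limma). A gene-level FPKM does not show whether the message could make protein, and "Irf8KO" is used below as the label only. The libraries are bulk mixtures, in which fewer cells of a type and less RNA per cell cannot be told apart.

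Promoter sequence from RefSeq (GRCm38.p6) matched 5 of the 9 genes: Cd79a, Cd22, Pax5, Ebf1 (with 2 start sites) and Cxcl13. The 250 bases before the start site are shown for a receptor chain, for an inhibitory co-receptor and for the chemokine, the genes between which the results below differ most. They were searched on both strands for CCCNNGGG (a form bound by EBF1), ATTTGCAT (the octamer bound by Oct factors), CANNTG (the E-box), GGAA (the ETS core) and an NF-κB form of GGG and CC with 5 bases between them. The windows are chr7:24897247-24897496 on the + strand for Cd79a, chr7:30879029-30879278 on the - strand for Cd22 and chr5:95956689-95956938 on the + strand for Cxcl13. Capitals mark the E-boxes in Cd79a, CCCNNGGG in Cd22 and the NF-κB form in Cxcl13.
Cd79a: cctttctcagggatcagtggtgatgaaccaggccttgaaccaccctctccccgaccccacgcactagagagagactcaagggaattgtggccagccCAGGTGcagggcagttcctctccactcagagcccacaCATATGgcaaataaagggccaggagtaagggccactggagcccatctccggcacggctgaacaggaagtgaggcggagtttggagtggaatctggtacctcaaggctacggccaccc
Cd22: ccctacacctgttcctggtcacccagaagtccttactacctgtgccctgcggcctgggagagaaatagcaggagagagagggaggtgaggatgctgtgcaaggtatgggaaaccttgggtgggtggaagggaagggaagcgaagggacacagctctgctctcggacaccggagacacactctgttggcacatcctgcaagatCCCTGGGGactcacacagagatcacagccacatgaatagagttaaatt
Cxcl13: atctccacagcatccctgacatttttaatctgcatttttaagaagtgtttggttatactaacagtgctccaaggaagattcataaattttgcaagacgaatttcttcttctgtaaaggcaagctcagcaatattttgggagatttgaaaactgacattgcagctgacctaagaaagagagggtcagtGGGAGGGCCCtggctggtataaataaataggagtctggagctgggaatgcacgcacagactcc
CCCNNGGG occurred in 11.8% of the 32817 promoter windows of that length in the table, and among the 5 genes only the Cd22 window held it, 48 bases before the start. The Cd79a window held 2 E-boxes, 154 and 117 bases before the start, where 66.2% of all windows held at least 1. The Cxcl13 window held the NF-κB form 63 bases and an E-box 91 bases before its start, and the NF-κB form was present in 45.8% of all windows. It was not particular to Cxcl13: the Cd79a window held it 146 bases before the start, unmarked above. The windows of Pax5 and of 1 of the 2 Ebf1 start sites also held it, and that of Cd22 did not. Of the marked matches none overlapped another of the searched forms. The octamer, present in 1.6% of all windows, was in none of the windows of these genes, and GGAA was in each of them, as in 93.4% of all. A match is a run of letters, not a measured binding site.

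In the WT PBS library all 9 genes were well expressed, and the antigen receptor chains led. Cd79a had 1028 FPKM, rank 88 of the 11099 tested genes, and Cd79b had 774. Cxcl13 followed at 572 FPKM, rank 124, above Ms4a1, which encodes the surface protein CD20, at 325. Cxcr5 stood at 114 FPKM. The transcription factor Pax5 had 60.7 FPKM and the Src-family kinase gene Blk 44.8, while the inhibitory receptor gene Cd22 had 34.0 and Ebf1 27.7. With 1 library, neighbours in this order cannot be set against a spread. The estimated fragments behind these levels ran from 238 for Blk to 3427 for Cd79a.

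**Figure D1:**
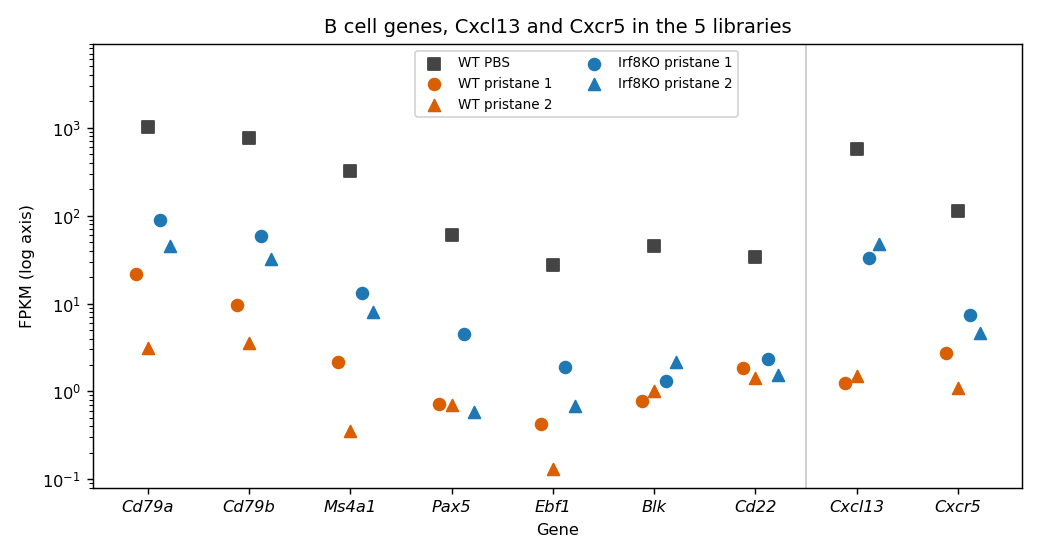
FPKM (vertical, log axis) of the 9 genes (horizontal) in the 5 libraries, 1 symbol per library, with no averaging. The WT PBS library is the highest for each gene, from 27.7 for Ebf1 to 1028 for Cd79a, and the Irf8KO pristane libraries stand clear of the WT pristane libraries most widely for Cxcl13.

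After pristane in wildtype mice all 9 genes fell, with changes from -3.74 (Cd22) to -7.92 (Cxcl13) in log2(FPKM + 1). Each passed the threshold of an adjusted p under 0.05, which 5.48% of the 11099 tested genes passed in the lower direction. The median change of the 9 genes was -5.37, beside -0.07 over all tested genes.

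Of the antigen receptor chains, Cd79a went from 1028 FPKM to 21.6 and 3.11 in the WT pristane libraries. Cd79b went from 774 to 9.63 and 3.58. Both were low in both pristane libraries and lowest in WT pristane 2. The log2 changes were -6.74 ± 1.16 SE for Cd79a (adjusted p = 0.0460) and -6.79 ± 0.66 for Cd79b (adjusted p = 0.0266).

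The surface and signalling genes went the same way to different depths. Ms4a1 went from 325 FPKM to 2.17 and 0.358, a log2 change of -7.30 ± 0.63 (adjusted p = 0.0257), and in WT pristane 2 it rested on about 3.15 estimated fragments. Cd22, which dampens antigen receptor signalling, went from 34.0 to 1.82 and 1.44 (-3.74 ± 0.31, adjusted p = 0.0246). Blk, a kinase that acts just below the receptor, went from 44.8 to 0.775 and 1.01 (-4.60 ± 0.31, adjusted p = 0.0246). Cd22 kept 5.36% and 4.23% of its PBS level and Ms4a1 0.667% and 0.110%, the smallest shares of the B cell genes in either library.

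The transcription factor genes left little signal. Pax5 went from 60.7 FPKM to 0.714 and 0.708, and the change was -5.17 ± 0.81 (adjusted p = 0.0412). Ebf1 went from 27.7 to 0.426 and 0.132, the latter about 2.26 estimated fragments, and the change was -4.50 ± 0.43 (adjusted p = 0.0266). Added constants weigh on changes of this kind, because 1 FPKM is above each of these pristane values.

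Cxcl13 had the deepest fall of the 9 genes and the third deepest of all 11099 tested genes. It went from 572 FPKM to 1.26 and 1.49, or 0.220% and 0.261% of the PBS level, with both libraries nearly level. The change was -7.92 ± 0.31 (adjusted p = 0.0159), and the pristane values rested on about 5.85 and 4.92 estimated fragments. Cxcr5 went from 114 FPKM to 2.73 and 1.08, a change of -5.37 ± 0.49 (adjusted p = 0.0264). Cxcl13 was 5.02 times Cxcr5 in WT PBS, and 0.460 and 1.38 times in the WT pristane libraries.

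Only 1 PBS library stands behind these comparisons, so its spread was taken from the pristane pairs. When any of the 4 pristane libraries was left out, the calls of the 9 genes did not hold, nor did those of any other tested gene. Such a fit leaves 1 residual degree of freedom. All 9 genes kept the lower direction in it.

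In the libraries labelled Irf8KO pristane the 9 genes were again below WT PBS, with 7 of 9 past the threshold that 4.72% of tested genes passed in the lower direction. The exceptions were Cd79a and Pax5. The median change was -4.08, beside -0.05 over all tested genes. This comparison shares its PBS library with the wildtype one, so both are given side by side and are not independent. With no Irf8KO PBS library, genotype and treatment cannot be told apart in it, and a fall here means a level below WT PBS.

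Cd79a had 90.1 and 45.6 FPKM, which is 8.76% and 4.43% of its PBS level (log2 change -3.98 ± 1.16, adjusted p = 0.105). Cd79b had 59.1 and 32.5 FPKM and fell by 4.11 ± 0.66 (adjusted p = 0.0461). Ms4a1 had 13.2 and 8.11 and fell by 4.84 ± 0.63 (adjusted p = 0.0377). In each of the 3 genes the first Irf8KO pristane library was the higher, and both lay between the PBS value and the wildtype pristane values.

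Pax5 split the pair, with 4.44 FPKM in Irf8KO pristane 1 and 0.578 in Irf8KO pristane 2, the latter below both WT pristane libraries (-4.40 ± 0.81, adjusted p = 0.0549). Ebf1 had 1.88 and 0.680 FPKM and fell by 3.70 ± 0.43 (adjusted p = 0.0340). Blk had 1.32 and 2.14 and fell by 4.09 ± 0.31 (adjusted p = 0.0274). Cd22, at 2.36 and 1.54 FPKM, fell by 3.58 ± 0.31 (adjusted p = 0.0281), close to its wildtype value.

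Cxcl13 had 32.6 and 48.2 FPKM in the Irf8KO pristane libraries, or 5.70% and 8.42% of the WT PBS level, and was lower by 3.82 ± 0.31 (adjusted p = 0.0274 by limma). Cxcr5 had 7.34 and 4.57 FPKM and fell by 4.08 ± 0.49 (adjusted p = 0.0355). In these libraries the chemokine was 4.45 and 10.5 times its receptor, the first below and the second well above the 5.02 times of WT PBS. As in wildtype mice, the calls did not hold for these or any other tested genes when any pristane library was left out. All 9 genes kept the lower direction.

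The direct comparison of the pristane groups, Irf8KO against WT, uses no PBS library. It asks whether the B cell genes and Cxcl13 stood higher in libraries labelled Irf8KO than in wildtype ones under the same treatment. Without an Irf8KO PBS library, a difference present before pristane cannot be told apart from one in the response to it. All 9 group means were higher in Irf8KO pristane, with a median difference of 1.29 beside -0.00163 over all tested genes, yet 0 of 9 passed the threshold in limma, as did 0% of tested genes in that direction. At an unadjusted p under 0.05 in limma there were 5 of 9, beside 1163 of the 11099 tested genes in that direction. Both Irf8KO libraries exceeded both WT libraries for 7 of 9 genes, beside 26.1% of tested genes, and the exceptions were Pax5 and Cd22.

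Cxcl13 had the largest difference of the 9 genes. Its 32.6 and 48.2 FPKM in Irf8KO pristane lay far above the 1.26 and 1.49 of WT pristane, and the ratio of the group means was 29.4. The log2 difference was 4.10 ± 0.25 (95% interval 3.40 to 4.80), rank 13 among rises and rank 13 by p of 11099 genes, with an adjusted p of 0.0538. The call depends on the genes tested with it: when only genes averaging 5 FPKM or more were tested the adjusted p was 0.00836, and without an intensity trend in limma it was 0.0463. Over all 13 alternatives the difference stayed between 3.83 and 4.76 and the adjusted p between 0.00836 and 0.351.

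The 3 most abundant B cell genes had differences near each other, smaller than that of Cxcl13 and with wider error, and did not pass. Ms4a1 differed by 2.45 ± 0.52 (adjusted p = 0.139), Cd79b by 2.68 ± 0.54 (adjusted p = 0.133) and Cd79a by 2.76 ± 0.94 (adjusted p = 0.229). Their group means were 8.43, 6.93 and 5.50 times higher in Irf8KO pristane, but the WT pristane libraries themselves differed 6.93-fold in Cd79a and 6.05-fold in Ms4a1. Cxcr5 differed by 1.29 ± 0.40 (adjusted p = 0.206), beside 4.10 for Cxcl13.

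The other B cell genes had smaller differences on this scale, where the added 1 FPKM weighs on low values, and also did not pass the test. The differences were 0.79 ± 0.35 for Ebf1 (adjusted p = 0.306), 0.78 ± 0.66 for Pax5 (adjusted p = 0.554) and 0.51 ± 0.25 for Blk (adjusted p = 0.344). Cd22 differed by 0.15 ± 0.25 (adjusted p = 0.763), with a 95% interval from -0.54 to 0.85. Without the first Irf8KO pristane library the signs of Pax5 (-0.12) and Cd22 (-0.050) turned.

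**Figure D2:**
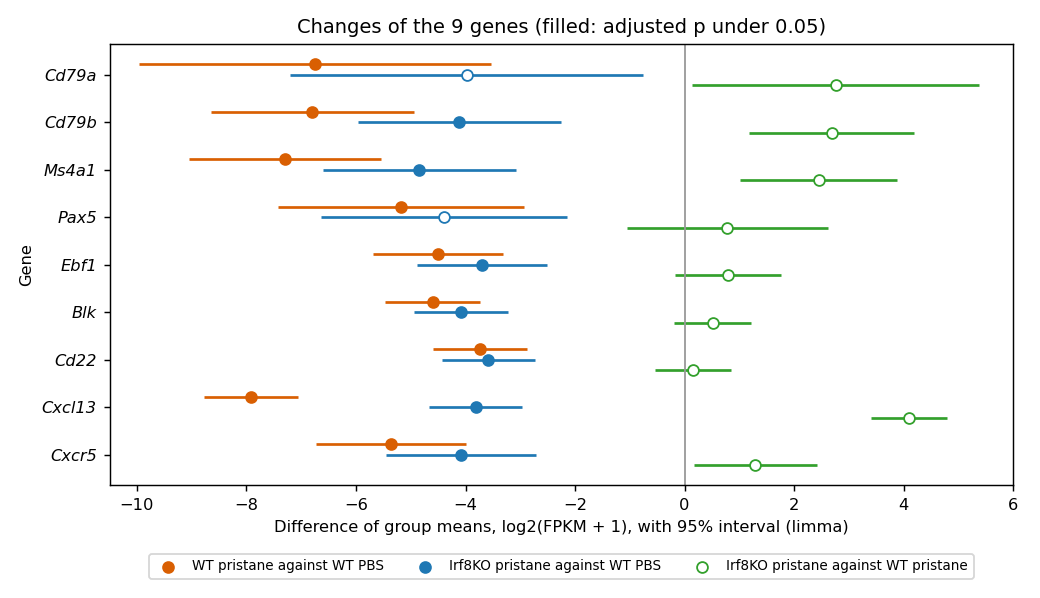
Change in mean log2(FPKM + 1) between groups (horizontal) for the 9 genes (vertical) in the 3 comparisons, with the 95% interval of limma as a line and filled circles where the adjusted p was under 0.05. All 9 orange circles (WT pristane against WT PBS) and 7 of 9 blue ones (Irf8KO pristane against WT PBS) are filled, and no green one (Irf8KO against WT under pristane) is, with Cxcl13 farthest to the right at 4.10.

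**Figure D3:**
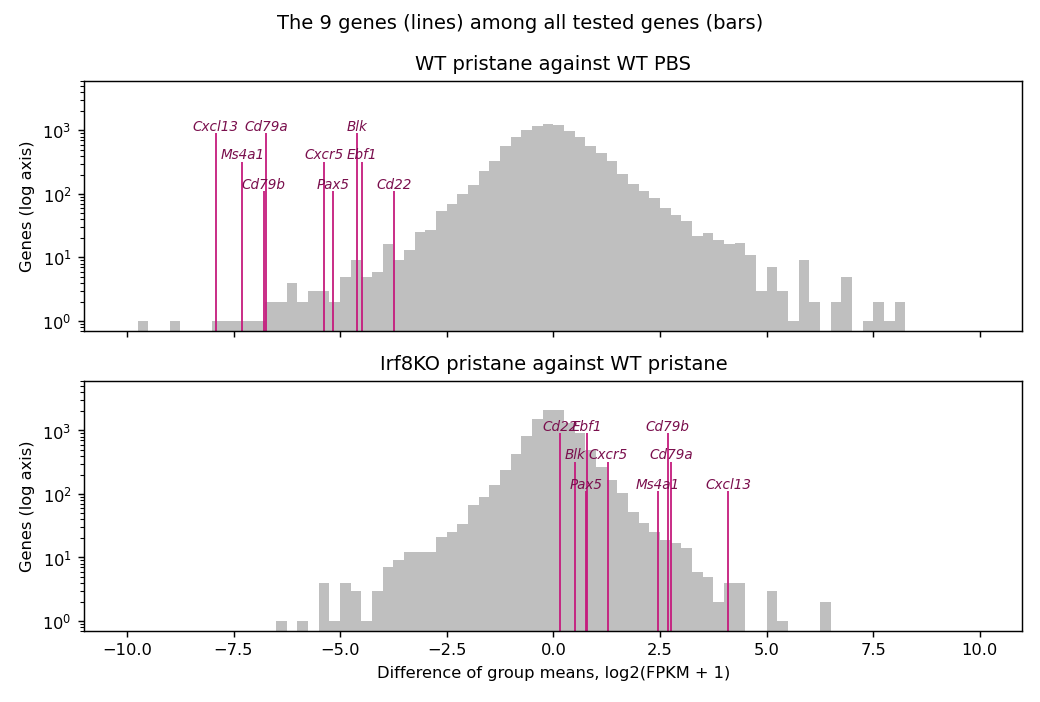
Number of tested genes (vertical, log axis) by change in mean log2(FPKM + 1) (horizontal), with lines at the 9 genes. In the upper panel all 9 lie in the left tail, from -7.92 to -3.74, and in the lower panel they spread from 0.15 (Cd22) to 4.10 (Cxcl13).

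The 9 genes did not keep their proportions across libraries. The ratio of Cd79a to Cd79b was 1.33 in WT PBS, 2.24 and 0.870 in WT pristane, and 1.53 and 1.41 in Irf8KO pristane, so the levels of the chains stayed near each other in all 5 libraries. The ratio of Cd79a to Cd22 was 30.2 in WT PBS and 38.1 and 29.7 in Irf8KO pristane, but 11.8 and 2.16 in WT pristane. The first WT pristane library was above the second in 6 of the 7 B cell genes, all but Blk, and the first Irf8KO library was above the second in the same number, again all but Blk. Cxcl13 went the other way in both pairs, with the second library the higher.

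Likeness of pattern was measured as the mean absolute difference of log2(FPKM + 1) over the 5 libraries after each gene's own mean was taken off, where 0 means an equal pattern. Between the 9 genes, Cd79b and Ms4a1 were closest at 0.197, followed by Cd79a and Cd79b at 0.288. Cxcr5 was closest to Ebf1 at 0.299. Cxcl13 was closest to Cd79b at 0.661 and farthest from Cd22 at 1.93, and its distance to its own receptor gene was 1.31. Over 5 libraries that share 1 high PBS value these distances are a description only.

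Among 5015 genes with at least 10 FPKM in some library, those most like Cd79a included Ly6d (0.439), Faim3 (0.490), Pou2af1 (0.717) and Bank1 (0.757), all from the B cell lists used here. Those most like Cxcl13 included Ltbp1 (0.732), Vsig4 (0.756), Fcna (0.805) and Prg4 (1.03). Ltbp1, Vsig4 and Prg4 belong to the list of large peritoneal macrophage markers.

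The other genes of the B cell programme were taken from lists made by function. For each list the counts are of genes past the threshold in WT pristane against WT PBS. Of all tested genes 5.48% fell and 5.18% rose by that measure. Of 13 co-receptors and surface proteins, 7 fell after pristane in wildtype mice and 0 rose, with a median change of -2.25. Fcrla, an intracellular Fc receptor-like protein of B cells, went from 98.1 FPKM to 2.82 and 3.03 (-4.66 ± 0.47, adjusted p = 0.0276). Cd37, a tetraspanin also found on other leukocytes, kept 150 and 102 of its 564 FPKM and fell by 2.17 ± 0.30 (adjusted p = 0.0347).

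Of 12 transcription factors and partners, 7 fell and 1 rose, beside 5.48% and 5.18% of all tested genes, with a median change of -1.87. Pou2af1, a coactivator of octamer-dependent transcription in B cells, fell by 4.61 ± 0.51 (adjusted p = 0.0290), from 58.0 FPKM to 1.95 and 0.967. Ikzf3, which encodes Aiolos, fell by 3.14 ± 0.26 (adjusted p = 0.0254). The gene that rose was Id2, an inhibitor of E proteins that many non-B leukocytes express, by 1.56 ± 0.22 (adjusted p = 0.0353), from 84.4 FPKM to 227 and 278.

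Antigen receptor signalling genes moved less as a list, with 2 of 14 lower, 1 higher and a median change of -0.72. Over all tested genes the shares were 5.48% lower and 5.18% higher. Bank1, a B cell scaffold protein, fell by 5.93 ± 0.24 (adjusted p = 0.0172), from 114 FPKM to 0.925 and 0.846. Rasgrp3 fell by 2.28 ± 0.21 (adjusted p = 0.0266), and Pik3ap1, an adaptor also used by myeloid cells, rose by 1.71 ± 0.29 (adjusted p = 0.0450). Lyn, a kinase shared by B and myeloid cells, had 129 FPKM in WT PBS and between 143 and 173 in the pristane libraries.

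Survival and subset genes followed in part, set beside the 5.48% of all tested genes that fell. Of 4 tested BAFF and APRIL genes 1 fell, Tnfrsf13c, the BAFF receptor on mature B cells, by 4.39 ± 0.51 (adjusted p = 0.0298). Of 8 B-1 cell genes 3 fell, namely Fcrl5 (-4.58 ± 0.33, adjusted p = 0.0246), Siglecg (-3.82 ± 0.50, adjusted p = 0.0337) and Zbtb32 (-3.36 ± 0.46, adjusted p = 0.0347). The median change of the 8 was -1.62, and Spn (1.36) and Plac8 (0.07) had positive changes without passing. Of 7 tested plasma cell genes 2 fell, Irf4 and Mzb1, and the median change of the 7 was -0.23. Sdc1 went up, from 2.00 FPKM to 67.3 and 24.0, as did Xbp1, from 69.2 to 108 and 136, and neither passed. Mzb1, a chaperone of antibody assembly that is high in B-1 cells, went from 261 FPKM to 3.28 and 3.25 (-5.94 ± 0.20, adjusted p = 0.0155) and stood at 8.04 and 8.79 in Irf8KO pristane. Siglecg is also on the co-receptor list and Irf4 on that of transcription factors. Of 10 immunoglobulin constant region symbols looked up, 0 were found in the deposited table, so these genes were not analysed.

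Lymphotoxin, acting through its β receptor and the non-canonical NF-κB pathway, and tumour necrosis factor are known inducers of Cxcl13 in lymphoid stroma. Of 12 genes on the list of this pathway 2 rose after pristane in wildtype mice, where 5.18% of tested genes rose, and 0 fell, where 5.48% did (limma). The median change was 0.58. Ltbr, the lymphotoxin β receptor, rose by 1.88 ± 0.23 (adjusted p = 0.0311), from 5.54 FPKM to 21.0 and 25.3, and Tnfrsf1a rose by 1.62 ± 0.20 (adjusted p = 0.0316). Ltb, which encodes lymphotoxin β and is made by B and other lymphocytes, went from 126 FPKM to 48.4 and 11.0 without passing (adjusted p = 0.179 by limma). The part of this pathway in the Cxcl13 values was not tested.

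Of 6 tested lymphoid chemokine and receptor genes other than Cxcl13 and Cxcr5, 1 fell in wildtype mice, where 5.48% of all tested genes did. It was Cxcl12, a stromal chemokine that retains B-1 cells and their precursors, which went from 12.95 FPKM to 1.21 and 1.40 in WT pristane and to 0.228 and 0.418 in Irf8KO pristane. Its changes were -2.60 ± 0.24 (adjusted p = 0.0264) and -3.40 ± 0.24 (adjusted p = 0.0274). The 2 homeostatic chemokine genes therefore stood in opposite order between the pristane groups, Cxcl13 higher and Cxcl12 lower in Irf8KO, and neither difference passed the test.

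**Figure D4:**
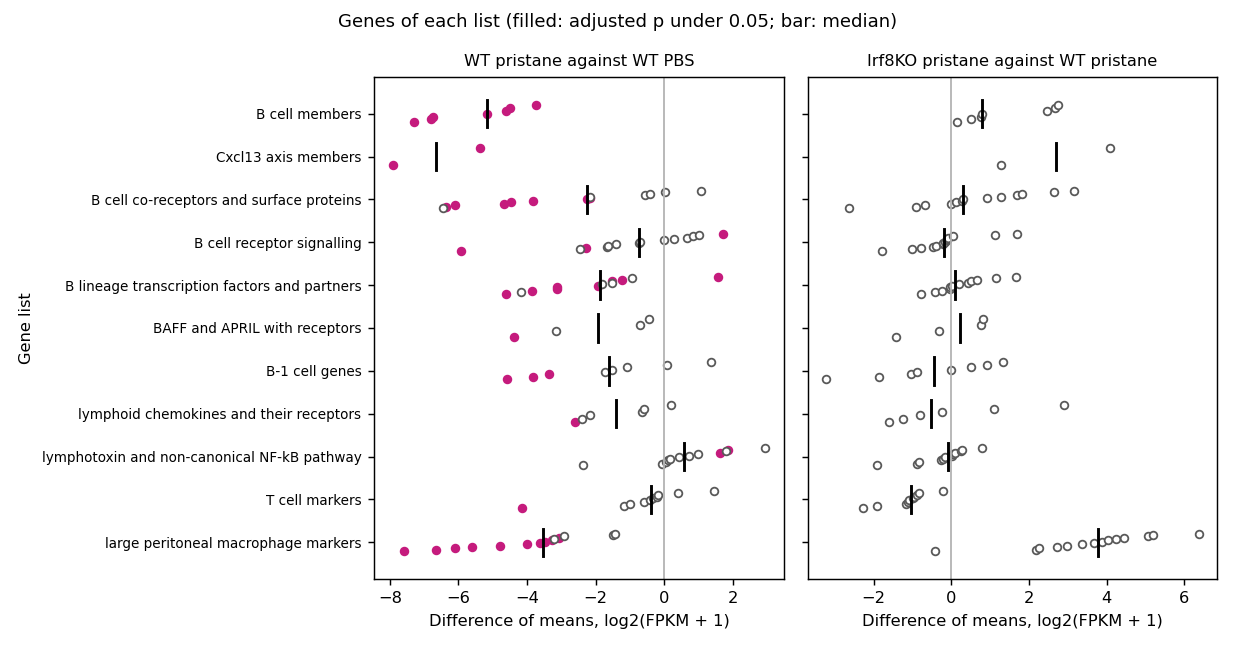
Change in mean log2(FPKM + 1) between groups (horizontal) for each tested gene of 11 lists (vertical), filled where the adjusted p was under 0.05, with a bar at the list's median. After pristane in wildtype mice (left) the medians of the B cell and macrophage lists lie to the left of 0. Some genes of the B cell lists lie on the right, among them 6 of 14 receptor signalling genes. Between the pristane groups (right) the macrophage list lies farthest to the right, with a median of 3.79.

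Markers of other cell types moved with these results. The 14 large peritoneal macrophage markers summed to 2644 FPKM in WT PBS, to 148 and 235 in WT pristane and to 1709 and 2917 in Irf8KO pristane, with 2 markers at 0 in WT pristane 1 and none at 0 in the Irf8KO libraries. After pristane in wildtype mice 10 of the 14 fell, where 5.48% of all tested genes did, with a median of -3.54. Between the pristane groups 13 of 14 were higher in both Irf8KO libraries than in both WT libraries, beside 26.1% of tested genes, and 0 passed in limma. Their median was 3.79, beside the 4.10 of Cxcl13 and the 0.79 of the 7 B cell genes. The 0.79 is that of Ebf1, at 0.426 and 0.132 FPKM in WT pristane, where the added 1 FPKM understates differences. The more abundant Cd79a, Cd79b and Ms4a1 differed by 2.76, 2.68 and 2.45. The part of large peritoneal macrophages in the Cxcl13 values was not tested.

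Against WT PBS the Irf8KO pristane libraries were lower in Cxcl13, as given above. Of the 14 macrophage markers 1 was lower past the threshold, as were 4.72% of all tested genes, and the median of the 14 was 0.34. Icam2, an adhesion molecule of large peritoneal macrophages, had 195 FPKM in WT PBS, 27.3 and 13.4 in WT pristane and 357 and 402 in Irf8KO pristane. Cd5l, a secreted protein of resident macrophages, had 341, then 25.8 and 74.5, then 307 and 694. Ltbp1, which binds latent TGF-β, came nearest of these markers to Cxcl13, with 59.2, then 0.290 and 0.191, then 14.1 and 26.7 FPKM. Vsig4, a complement receptor of resident macrophages, stood in Irf8KO pristane at 3.78% and 9.81% of its 221 FPKM in WT PBS, on either side of the shares of Cxcl13. Timd4, a receptor for dying cells on long-lived resident macrophages, had 26.9 FPKM in WT PBS and 0.0957 to 0.838 in the pristane libraries. It was below WT PBS in both groups (-3.99 ± 0.31, adjusted p = 0.0246, and -4.42 ± 0.31, adjusted p = 0.0274, by limma).

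**Figure D5:**
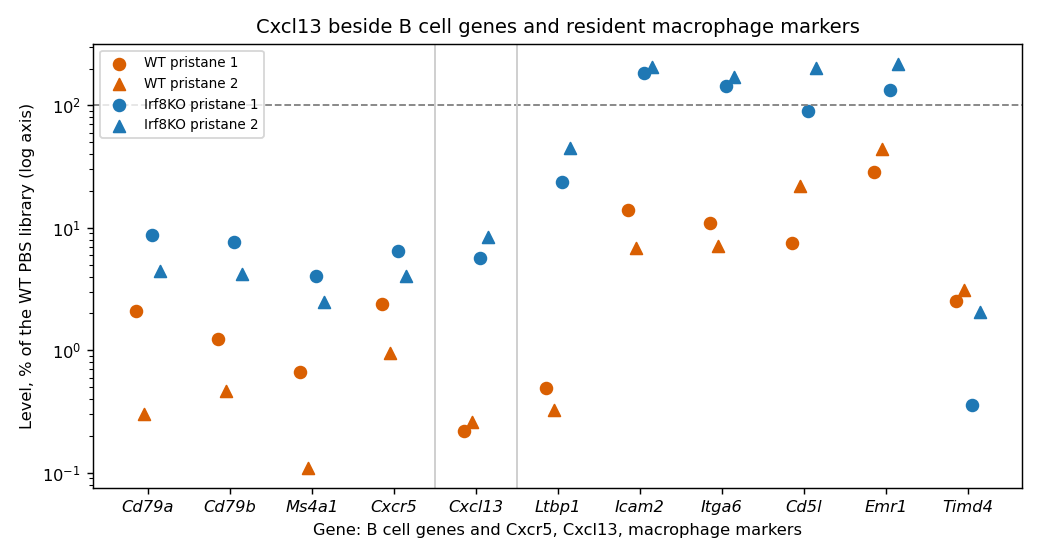
Level in each pristane library as a percent of the WT PBS library (vertical, log axis, dashed line at 100) for 3 B cell genes, Cxcr5, Cxcl13 and 6 large peritoneal macrophage markers (horizontal). In the Irf8KO pristane libraries Cxcl13 stands at 5.70% and 8.42%, above the 3 B cell genes shown in the second library (2.50% to 4.43%) and not in the first (4.06% to 8.76%), and below the macrophage markers shown other than Timd4.

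Other cell types give the scale against which these FPKM stand, since a rise of 1 kind of RNA lowers the share of the rest. The 7 neutrophil markers found in the table summed to 167 FPKM in WT PBS, to 16823 and 15119.5 in WT pristane and to 48054.5 and 24676 in Irf8KO pristane. The 7 inflammatory monocyte markers summed to 125 FPKM in WT PBS, to 474 and 5048 in WT pristane and to 312 and 186 in Irf8KO pristane, so the WT pristane libraries stood far apart, with Chil3 at 88.9 and 4000 FPKM in them. Of these 7 markers 2 rose after pristane in wildtype mice, where 5.18% of all tested genes did, with a median of 4.49. The median of the 7 between the pristane groups was -2.78, with 0 past the threshold in limma. The 10 T cell markers summed to 390, then 142 and 115, then 60.8 and 49.6, but Cd2 alone made up 247 FPKM in WT PBS. Without Cd2 the sums were 143, then 125 and 105, then 47.3 and 40.5. In wildtype mice 1 of the 10 fell, Cd2, where 5.48% of all tested genes did, with a median of -0.37. Between the pristane groups the median of the 10 was -1.04, with 0 past the threshold. All 6 fibroblast markers were listed at 0 in WT PBS and summed to between 22.9 and 71.2 FPKM after pristane. The 6 mesothelial markers, with 5 listed at 0 in WT PBS, summed to between 4.37 and 12.6 FPKM after pristane. A listed 0 may be a failed estimate, and the part of stromal cells in the Cxcl13 values was not tested. The part of neutrophil, monocyte and T cell content in the B cell values was not tested.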

How the data were processed

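Peritoneal lavage cells were profiled by Smart-seq2 in 5 libraries. The deposited FPKM table was made by the authors with tools that, per the submitters' processing notes, include BWA, TopHat2 2.0.10, Cufflinks 2.2.1 and Cuffnorm; the role of each is not stated. Build and annotation: not given in the sources used here. Its file is called a count table, but its values are not whole numbers. Depth was estimated from low values of genes with 1 transcript, where between 63.9% and 82.1% of values times length that rounded to 1 or 2 fragments lay within 0.15 of a whole number. A value of exactly 0 can be a failed estimate.

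A gene was tested if any library reached 1 FPKM (11099 genes). Tests used R 4.3.3 and limma 3.58.1 with an intensity trend, 2-sided, on log2(FPKM + 1), with 3 group means over all 5 libraries and 2 residual degrees of freedom, which is what such a small set allows. Adjustment was by Benjamini and Hochberg over these genes. Fold changes of low genes are understated on this scale. Of the table's symbols, 27 had been turned into dates and were left out. The script was tested on simulated data. The 9 genes and the lists were chosen with earlier results of these data known. From each list the 3 genes with the highest mean and the 3 with the smallest p for WT pristane against WT PBS could be named, and the 5 genes most like Cxcl13 and Cd79a; 1 of these is not reported here. Igj was chosen after its values were seen. Older symbols were matched (Emr1 for Adgre1, Igj for Jchain, Faim3 for Fcmr). Alternatives were the pseudocount, the filter, scaling, trend, groups fitted, a replicate block and each pristane library left out.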

Additional observations from a re-analysis of the deposited data

How the results depend on the processing

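All 9 genes kept the lower direction against WT PBS under each of the 13 alternatives. The count past the threshold in WT pristane against WT PBS, 9 genes, was 7 to 9 with other pseudocounts, filters, scalings or no trend. It was 0 with only the 2 groups compared, 0 with a replicate block and 0 to 0 when each pristane library was left out. In Irf8KO pristane against WT PBS, 7 genes became 3 with a pseudocount of 0.1, 0 with only the 2 groups compared, 0 with the replicate block and 0 to 0 with a library left out. Between the pristane groups 0 genes became 1, Cxcl13, with a filter of a mean of at least 5 FPKM and 1 without a trend, and 0 to 0 with a library left out. With a library left out, Pax5 ranged there from -0.12 to 1.67 and Cd22 from -0.050 to 0.36, negative without Irf8KO pristane replicate 1; no other of the 9 did under any alternative.

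Over all tested genes, 1183 past the threshold in WT pristane against WT PBS became 0 with only the 2 groups, 0 with the replicate block and 0 to 0 with a library left out. For Irf8KO pristane against WT PBS, 947 became 623 without a trend, 0 with only the 2 groups, 0 with the block and 0 to 0 with a library left out. For Irf8KO against WT under pristane, 3 became 0 with a pseudocount of 0.1, 0 with no filter, 242 with a mean of at least 5 FPKM, 0 with an equal total per library, 40 without a trend, 0 with the block and 0 to 0 with a library left out. These fits have 1 residual degree of freedom when a library is left out or the block is added. The split into 575 higher and 608 lower in WT pristane became 515 and 826 with upper-quartile scaling, 370 and 899 with no filter and 810 and 366 with a mean of at least 5 FPKM. For Irf8KO pristane against WT PBS, 423 and 524 became 396 and 758, 292 and 866, and 638 and 291. Upper-quartile scaling moved the median of all genes from -0.07 to -0.21 in WT pristane against WT PBS and from -0.05 to -0.19 in Irf8KO pristane against WT PBS; an equal total per library moved the latter to -0.26 and that between the pristane groups from -0.00163 to -0.20.

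Libraries with the same replicate number share only a number in the labels: the differences between first and second libraries of both groups had a correlation of 0.04 over all genes. In all 9 of the genes described the same library of the pair was the higher in both groups. The share over all tested genes was not computed, and genes that move together are not separate cases. Pax5 was nearly level in WT pristane, at 0.714 and 0.708 FPKM. The replicate block lowered the SE of Cd79a in WT pristane against WT PBS from 1.16 to 0.55 (adjusted p = 0.0600 by limma). The lowest library holds an estimated 4.92 fragments of Cxcl13, 3.15 of Ms4a1 and 2.26 of Ebf1, which limits their fold changes.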

Other observations

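Igj and Plac8 had lower levels in Irf8KO than in WT pristane, the direction opposite to Cxcl13, and neither difference passed the test. Igj, the joining chain of secreted antibody, had 9.48 FPKM in WT PBS, 7.86 and 8.03 in WT pristane and 0.199 and 0.575 in Irf8KO pristane. It fell against WT PBS in the libraries labelled Irf8KO (-2.93 ± 0.29, adjusted p = 0.0317 by limma) and not detectably in wildtype mice (-0.23 ± 0.29, adjusted p = 0.612), and the difference between the pristane groups was -2.70 ± 0.24 (adjusted p = 0.0560). Plac8, a gene of B-1 cells that myeloid cells also express, had 706 FPKM in WT PBS, 640 and 863 in WT pristane and 109 and 57.1 in Irf8KO pristane. Its difference between the pristane groups was -3.22 ± 0.39 (adjusted p = 0.0745).

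Ackr3 and Cd81 had higher levels beside Cxcl13 in the Irf8KO libraries, again without passing between the pristane groups. Ackr3, an atypical receptor that scavenges the product of Cxcl12, had 26.6 FPKM in WT PBS, 14.8 and 18.5 in WT pristane and 124 and 135 in Irf8KO pristane. It rose against WT PBS in the latter (2.24 ± 0.22, adjusted p = 0.0317), and the difference between the pristane groups was 2.89 ± 0.18 (adjusted p = 0.0538). Cd81, a widely expressed tetraspanin, had 205 FPKM in WT PBS, 61.7 and 32.9 in WT pristane and 414 and 402 in Irf8KO pristane (3.15 ± 0.35 between the pristane groups, adjusted p = 0.0660). Tnf, from the list of the lymphotoxin pathway, had 90.2 FPKM in WT PBS, 737 and 671 in WT pristane and 286 and 122 in Irf8KO pristane. Its change in wildtype mice (2.95 ± 0.56, adjusted p = 0.0531) did not pass in limma. Nor did its difference between the pristane groups (-1.91 ± 0.46, adjusted p = 0.158). The part of Tnf in the Cxcl13 values was not tested.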
